A study of Mus musculus with 6 samples.

Results

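The early neural genes are 10 genes that mark the first steps from a pluripotent cell to a neural progenitor and a young neuron, namely Nes, Sox1, Pax6, Zic1, Sox4, Sox11, Tubb3, Stmn2, Map2 and Ncam1. They were taken by gene name from a deposited RNA sequencing table of 24421 genes, and all 10 were found in it. The RNA came from mouse embryonic stem cells of the line E14, derived from the inner cell mass of a blastocyst. Cells homozygous for a disrupted Pml gene (Pml-/-, 2 libraries, called the knockout below) were compared with wild-type cells (2 libraries). The Pml product is the protein around which PML nuclear bodies assemble. Cells of all 4 libraries had been exposed to paraquat (10 µM for 15 h), which cycles between redox states and yields superoxide, so the comparison sets genotypes side by side under treatment and does not measure the response to paraquat. All cells were grown with CHIR99021, which inhibits GSK3, PD0325901, which inhibits MEK, and leukemia inhibitory factor, a medium that holds stem cells in the naive state. The labels do not say how Pml was disrupted, whether the knockout cells are 1 clone, or whether libraries of a genotype stem from separate cultures. The p-values therefore reflect the spread among these libraries alone, which may be technical. The other 2 of the 6 samples of the series, chromatin marked by a PML-fused peroxidase, were not analysed here.

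When stem cells leave pluripotency for the neural lineage, SOX1 and PAX6 appear as transcription factors of the neural plate and its progenitors, and the intermediate filament nestin is built into the progenitor cytoskeleton. SOX4 and SOX11 then act in newly forming neurons, which make the tubulin TUBB3, the microtubule-destabilising stathmin STMN2 and the microtubule-associated protein MAP2. Signalling through ERK helps cells to leave the naive state, and the medium used here holds this pathway down by inhibiting MEK.

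Levels are given as CPM, reads scaled to the total counted in genes and multiplied by 1000000, which are not corrected for transcript length, so levels are compared between genotypes and not between genes. Library depth lay between 31384794 and 44130093 reads, and 1 CPM is about 31 to 44 reads. Each difference is a log2 fold change on the log2(CPM + 1) scale, knockout minus wild type, from limma over the 12710 genes whose mean reached 1 CPM, with p-values adjusted over all of them. A gene was called where its adjusted p was under 0.05. Pml itself was at 78.7 and 89.7 CPM in the knockout libraries, against 238 and 228 CPM in the wild-type libraries. The cells carried high levels of pluripotency markers in both genotypes: Pou5f1 was at 1269 and 1215 CPM in the knockout and 1371 and 1295 CPM in wild type. Summed over 11 such markers the level was 7204 and 7324 CPM in the knockout and 6962 and 7092 CPM in wild type. Genes of committed neural cells were unevenly detected: no read was found for Dcx, and Neurog2 and Hes5 stayed at or below 0.157 CPM in every library. Others were well above the level filter, such as Neurod1, a proneural factor, at 6.26 and 7.55 CPM in the knockout and 9.50 and 7.80 CPM in wild type, and Elavl2, a neuronal RNA-binding protein, at 39.7 and 42.1 CPM in the knockout and 35.3 and 41.6 CPM in wild type. In bulk RNA, fewer cells expressing a gene and less RNA per cell cannot be told apart.

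Of the 10 early neural genes, 3 fell in the knockout, by 1.17-fold to 1.38-fold: the neural stem cell filament gene Nes, the neural plate factor Sox1 and the neuronal stathmin Stmn2. None of the other 6 tested members passed the threshold, and Zic1 was below the level filter. Of the 9 tested members 3 were called lower and 0 higher, while among the 12710 tested genes 5.41% were called, 3.45% lower and 1.95% higher. Libraries of the 2 genotypes did not overlap for 7 tested members, with the knockout lower for 6 and higher for 1; over all tested genes these shares were 25.5% and 23.8%. The median log2 fold change of the 9 was -0.14, beside a median of -0.0029 over all tested genes. This median lay between -0.06 and -0.21 when each library was left out in turn, at -0.06 without knockout library 1 and -0.21 without knockout library 2. Since the members were chosen with earlier results of these data known, these counts describe the list and were not tested.

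**Figure D1:**
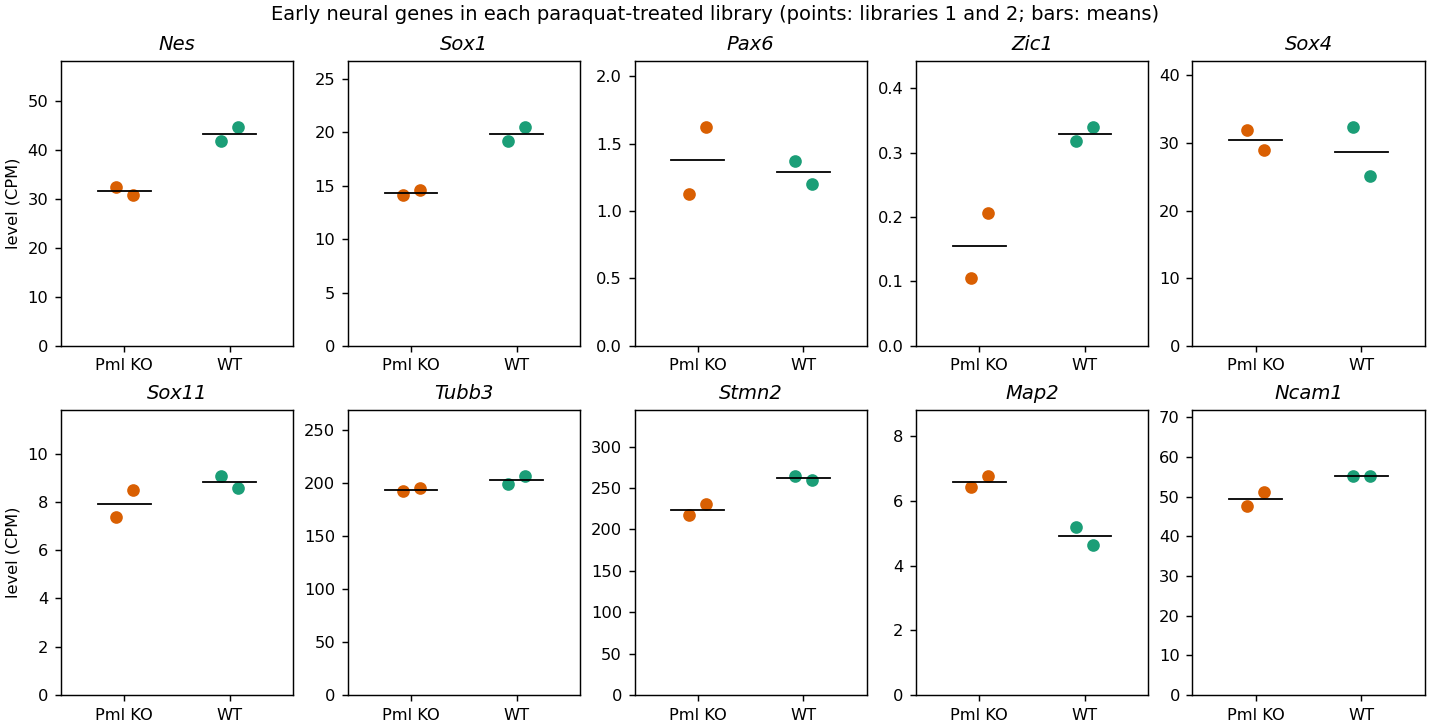
Level in CPM (vertical axes, linear, each starting at 0) of each early neural gene in the 2 Pml knockout libraries (left) and the 2 wild-type libraries (right), with library 1 to the left of library 2 in each group; horizontal bars are means. The knockout points of Nes, Sox1, Stmn2, Sox11, Tubb3, Zic1 and Ncam1 lie below both wild-type points. Those of Map2 lie above them, and those of Pax6 and Sox4 overlap with wild type.

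Nes encodes nestin, the intermediate filament protein of neural stem and progenitor cells. It was at 32.4 and 30.7 CPM in the knockout libraries, against 41.8 and 44.6 CPM in the wild-type libraries. Both knockout values lay below both wild-type values, and the gap between the genotypes was wider than the gap within either. The means were 31.5 ± 1.20 CPM in the knockout and 43.2 ± 1.98 CPM in wild type (SD, n = 2 each), so 72.9% of the wild-type level was present. The log2 fold change was -0.44 (SE 0.072, 95% interval -0.60 to -0.29, limma adjusted p = 0.00199). The gene lies on chromosome 3 from 87971093 to 87980451.

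Sox1 encodes an HMG-box transcription factor of the SoxB1 family and is among the first genes turned on in the neural plate. It was at 14.1 and 14.6 CPM in the knockout libraries, against 19.2 and 20.5 CPM in the wild-type libraries, again with no overlap. The means were 14.3 ± 0.35 CPM in the knockout and 19.9 ± 0.93 CPM in wild type (SD, n = 2 each), which leaves 72.2% of the wild-type level. The log2 fold change was -0.44 (SE 0.093, 95% interval -0.64 to -0.25, limma adjusted p = 0.0105). The call ended when no filter on low values was applied (adjusted p = 0.0555). Sox1 lies on chromosome 8 from 12395519 to 12399555, within the long noncoding gene Sox1ot, which the table lists under an older name at 0.26 and 0.23 CPM in the knockout and 0.54 and 0.34 CPM in wild type. The sources used here do not say whether counting was strand-specific, so a small part of the Sox1 reads could belong to Sox1ot. Any part of the 10 to 17 reads of Sox1ot per library could belong to Sox1.

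Chromosome 8 as a whole was lower in the knockout: the median log2 fold change of its 681 tested genes was -0.06, and 7.64% of them were called lower, against 3.45% of all tested genes. Subtracting each chromosome's median in each library moved the log2 fold change of Sox1 to -0.38 (limma adjusted p = 0.0274) and left its call in place. Tubb3, the other member on chromosome 8, stood at -0.0015 on the log2 scale after the same subtraction. Nes and Stmn2 lie on chromosome 3, whose 575 tested genes had a median of 0.0011 and were called lower in 2.43% of cases. Genes of the Y chromosome differed far more: the 4 tested were all called lower, with a median log2 fold change of -4.15, and summed to 14.3 and 13.5 CPM in the knockout libraries, against 288 and 284 CPM in the wild-type libraries. Differences between the knockout and wild-type lines other than Pml cannot be told apart from the genotype here.

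Stmn2 encodes stathmin 2, also known as SCG10, which regulates microtubule turnover in growing axons. It was at 217 and 230.4 CPM in the knockout libraries, against 265 and 259 CPM in the wild-type libraries. The genotypes did not overlap, and the difference was smaller than for Nes and Sox1. The means were 224 ± 9.39 CPM in the knockout and 262 ± 3.82 CPM in wild type (SD, n = 2 each), so 85.4% of the wild-type level was present. The log2 fold change was -0.23 (SE 0.046, 95% interval -0.33 to -0.13, limma adjusted p = 0.00926). With 8285 to 11439 reads per library, counting error was small for this gene: the exact Poisson 95% intervals were 213 to 222 CPM and 226 to 235 CPM in the knockout and 259 to 270.4 CPM and 254 to 264 CPM in wild type. Stmn2 lies on chromosome 3 from 8509527 to 8561604.

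**Figure D2:**
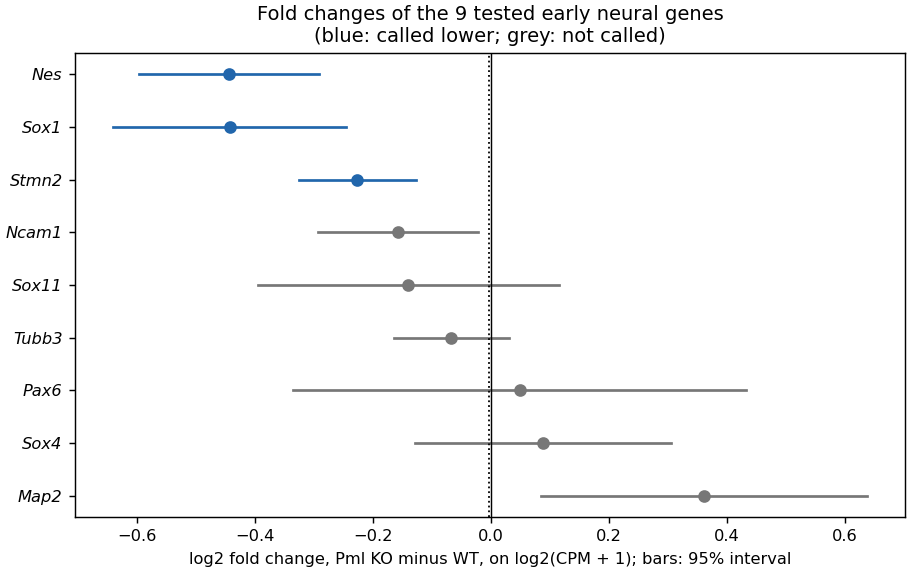
Log2 fold change of the 9 tested early neural genes (horizontal axis, Pml knockout minus wild type on the log2(CPM + 1) scale; points are limma estimates from 2 libraries a genotype, bars are 95% intervals, and the dotted line is the median of all 12710 tested genes). Nes, Sox1 and Stmn2, called lower, have intervals wholly below 0, as Ncam1 does without being called, and Map2 has an interval from 0.08 to 0.64.

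The promoters of Nes and Sox1, whose differences were of like size, and of Map2, whose values went the other way, are shown to let their letters be compared. Each window runs from 250 bases before to 50 bases after a start listed by RefSeq (GRCm38.p6, gene strand, 5′ to 3′): chr3:87970843-87971142 (plus strand) for Nes, chr8:12395269-12395568 (plus strand) for Sox1 and chr1:66175079-66175378 (plus strand) for Map2. Capitals mark matches to the motifs searched.
Nes: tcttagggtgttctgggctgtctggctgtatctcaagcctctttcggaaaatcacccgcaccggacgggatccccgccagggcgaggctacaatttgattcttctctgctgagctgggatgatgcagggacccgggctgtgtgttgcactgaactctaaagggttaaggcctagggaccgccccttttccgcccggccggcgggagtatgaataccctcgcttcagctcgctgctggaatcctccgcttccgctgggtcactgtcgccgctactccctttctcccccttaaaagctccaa
Sox1: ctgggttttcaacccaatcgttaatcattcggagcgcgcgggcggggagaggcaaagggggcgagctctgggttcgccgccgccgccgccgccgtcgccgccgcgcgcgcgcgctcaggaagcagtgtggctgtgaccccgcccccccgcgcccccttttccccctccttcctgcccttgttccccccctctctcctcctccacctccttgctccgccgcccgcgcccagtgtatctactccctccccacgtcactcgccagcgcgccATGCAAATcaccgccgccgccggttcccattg
Map2: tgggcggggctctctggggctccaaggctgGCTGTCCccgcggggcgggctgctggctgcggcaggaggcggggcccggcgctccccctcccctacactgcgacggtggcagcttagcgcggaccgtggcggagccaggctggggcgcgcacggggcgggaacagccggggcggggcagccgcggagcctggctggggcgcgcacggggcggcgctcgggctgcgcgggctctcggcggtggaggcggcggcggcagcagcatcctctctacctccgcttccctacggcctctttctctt

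The motifs were 2 stretches of the site bound by REST, a repressor of neuronal genes (TTCAGCACC and GGACAGC), 2 forms of the core bound by SOX factors (ACAAAG and AACAAT), the E-box form CAGCTG, and the octamer ATGCAAAT bound by POU factors such as OCT4. All were searched on both strands. The octamer was added after the Sox1 sequence was read. It begins 18 bases after the Sox1 start and is found in 1.74% of 32851 promoter windows. The Map2 window holds GGACAGC on the opposite strand, beginning 220 bases before the start, as does the Tubb3 window 11 bases after its start; 6.56% of all windows hold it. The Nes window holds none of the 6 motifs. None of the 9 windows found, for 8 of the 10 members, holds TTCAGCACC, which 0.371% of all windows hold. None holds AACAAT either, which 10.7% of all windows hold. The Sox4 and Sox11 windows hold CAGCTG, found in 16.3% of all windows, and a Pax6 window holds ACAAAG, found in 18.7%. CG dinucleotides, which are dense in promoters of the CpG island type, numbered 37 in the Sox1 window, 37 in the Map2 window and 18 in the Nes window, against a median of 7 over all windows. A match is a description of these letters and not evidence of binding.

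The remaining transcription factors of the group did not pass the test. Pax6, a paired-box factor of the neural plate and the eye, was barely detected, at 1.13 and 1.62 CPM in the knockout libraries, against 1.37 and 1.20 CPM in the wild-type libraries. The genotypes overlapped, with 43 to 71 reads per library, and the log2 fold change was 0.05 with a 95% interval from -0.34 to 0.43 (limma adjusted p = 0.92). The log2(CPM + 1) scale understates the change of a gene this low. In summed reads the ratio of knockout to wild type was 1.10, with an exact 95% interval from 0.83 to 1.45 that covers counting error only. Pax6 overlaps in part with the protein-coding gene Elp4, at 25.6 and 29.8 CPM in the knockout and 30.0 and 28.6 CPM in wild type. As strand use in counting is not stated, some of the few Pax6 reads could belong to Elp4. Zic1, a zinc finger factor of the dorsal neural tube, had 4 and 9 reads in the knockout libraries, against 10 and 15 reads in the wild-type libraries. Over summed reads the ratio of knockout to wild type was 0.48, with an exact 95% interval from 0.23 to 0.97 that likewise covers counting error only. Zic1 was not tested in the comparison over all genes, and edgeR with no filter gave an adjusted p of 0.634.

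Sox4 and Sox11 encode SoxC factors that promote neuronal differentiation. Sox4 was at 31.8 and 28.9 CPM in the knockout libraries, against 32.4 and 25.1 CPM in the wild-type libraries. Its 2 wild-type libraries stood farther apart than the genotypes did, and their exact Poisson intervals, 30.4 to 34.4 CPM and 23.6 to 26.6 CPM, did not meet. The log2 fold change was 0.09 (95% interval -0.13 to 0.31, limma adjusted p = 0.70), and it was -0.09 without wild-type library 2. Sox11 was at 7.37 and 8.49 CPM in the knockout libraries, against 9.08 and 8.57 CPM in the wild-type libraries. The higher knockout value nearly met the lower wild-type one, and the log2 fold change of -0.14 had a 95% interval from -0.40 to 0.11 (limma adjusted p = 0.576).

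Among the neuronal cytoskeleton members, Tubb3 and Map2 did not pass. Tubb3, the neuron-enriched beta tubulin known as the TUJ1 antigen, was at 193 and 195 CPM in the knockout libraries, against 199.7 and 207 CPM in the wild-type libraries. The values did not overlap, but the log2 fold change of -0.07 was small and had a 95% interval from -0.16 to 0.03 (limma adjusted p = 0.466). A difference as large as that of Stmn2 lay outside this interval. Map2, a dendritic microtubule-associated protein, was at 6.42 and 6.77 CPM in the knockout libraries, against 5.19 and 4.65 CPM in the wild-type libraries. It was the one tested member with both knockout values above both wild-type values. In plain CPM the knockout mean was 1.34 times the wild-type mean. Its log2 fold change was 0.36 with a 95% interval from 0.08 to 0.64, and it did not pass the adjusted threshold (limma adjusted p = 0.129). Over the alternatives tried the adjusted p of Map2 ranged from 0.0700 to 0.405.

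Ncam1 encodes the neural cell adhesion molecule, a membrane protein of the immunoglobulin superfamily that is also made outside neurons. It was at 47.5 and 51.3 CPM in the knockout libraries, against 55.2 and 55.2 CPM in the wild-type libraries. The knockout was lower in both libraries. The log2 fold change was -0.16 with a 95% interval from -0.29 to -0.02 (limma adjusted p = 0.182), so the difference was not past the threshold once all tested genes were taken into account. An unadjusted limma p under 0.05 was found for 19.3% of all tested genes.

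**Figure D3:**
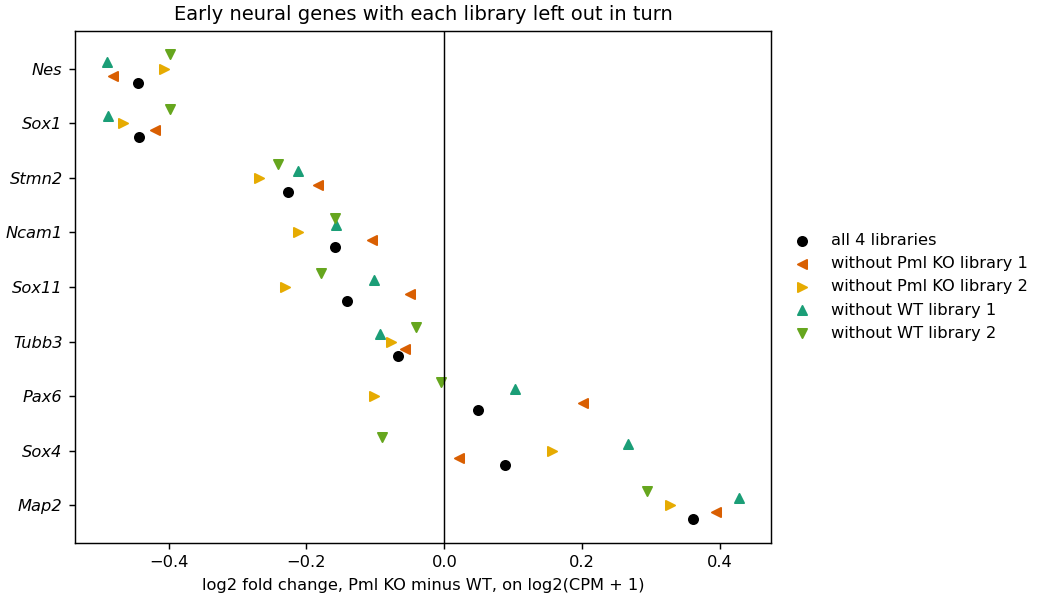
Log2 fold change of each tested early neural gene (horizontal axis, Pml knockout minus wild type on the log2(CPM + 1) scale) with all 4 libraries and with each library left out in turn, as the symbols show. Nes, Sox1 and Stmn2 stayed below 0 and Map2 above 0 each time, while Sox4 and Pax6 had values on both sides of 0.

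The 3 calls held with each of the 4 libraries left out in turn, with highest adjusted p of 0.0205 for Nes, 0.0459 for Sox1 and 0.0493 for Stmn2. The labels describe the RNA library kit for both knockout libraries and for wild-type library 1, while the entry for wild-type library 2 names only the DNA kit of the chromatin samples. Without wild-type library 2 the log2 fold changes were -0.40 for Nes, -0.40 for Sox1 and -0.24 for Stmn2, and all 3 passed. The authors' deposited table, made with edgeR and with fold changes given as wild type over knockout, listed Nes, Sox1 and Stmn2 and no other member at a false discovery rate under 0.05: Nes at 2.56e-06, Sox1 at 0.000303 and Stmn2 at 0.0113. Of all genes it lists, 3.8% were under this rate in the authors' deposited table. On reads recovered from the CPM values, edgeR and DESeq2 also called Nes, Sox1 and Stmn2 and no other member, beside 4.19% and 3.76% of all genes they tested.

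The closest relatives of the members gave a mixed picture. Of 7 tested intermediate filament genes, 4 were called lower with limma, Nes and 3 others, beside 3.45% of all tested genes. This count is a description and was not tested. Nefm, the medium neurofilament chain, was at 7.84 and 6.47 CPM in the knockout libraries, against 17.5 and 21.4 CPM in the wild-type libraries, a 2.71-fold difference (log2 fold change -1.32, limma adjusted p = 8.89e-06). Nefl, the light chain, whose gene is also on chromosome 14, was at 44.4 and 43.1 CPM in the knockout libraries, against 56.0 and 58.98 CPM in the wild-type libraries (log2 fold change -0.39, limma adjusted p = 0.00214). Vim, vimentin, which assembles with nestin in progenitors and is made in many cell types, was at 266 and 288 CPM in the knockout, against 315 and 318 CPM in wild type (log2 fold change -0.19, limma adjusted p = 0.026). The Vim call ended without any 1 of 3 libraries (knockout library 1 and each wild-type library). It also ended under edgeR with its filter (adjusted p = 0.0523) and under limma with no filter (adjusted p = 0.0899). Nefh, Ina and Synm did not pass, at log2 fold changes of -0.19, 0.13 and -0.07.

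The other SoxB1 genes, which are relatives of Sox1, did not pass. Sox2, which is shared by pluripotent cells and neural progenitors, was at 664 and 729 CPM in the knockout libraries, against 678 and 689 CPM in the wild-type libraries (log2 fold change 0.03, 95% interval -0.08 to 0.13). Sox3 had a log2 fold change of 0.03 with a wider interval. Sox12, the third SoxC gene, was at 0.14 (limma adjusted p = 0.195). Of the stathmins, Stmn1 and Stmn3 gave 0.04 and 0.11 and neither passed, and Stmn4 was near 0 CPM. Of 7 tested beta tubulin genes, including Tubb3, none passed with limma, with edgeR or with DESeq2, with all libraries or with 1 left out in turn (limma), 0 had an unadjusted limma p under 0.05, and their log2 fold changes lay between -0.07 and 0.06. Tau (Mapt), Map4, Map1a, Map1b and Map1s, which bind microtubules as MAP2 does, had log2 fold changes between -0.16 and 0.22. With all 4 libraries none of these 5 passed with limma, edgeR with its filter or DESeq2, and 2 of them, Map1a and Map1b, had an unadjusted limma p under 0.05. Map1b passed as higher without wild-type library 2 (limma adjusted p = 0.000131) and under edgeR with no filter (adjusted p = 0.00558), and Map1a passed as lower without wild-type library 1 (limma adjusted p = 0.0342). Of the Zic genes described here, Zic2 was lower (log2 fold change -0.24, limma adjusted p = 0.038), a call that ended without any 1 of 3 libraries (each knockout library and wild-type library 1; highest adjusted p = 0.326), with no filter and under DESeq2. Zic5 gave -0.03. No other gene of the Pax family passed the level filter, and Ncam2 was at most 0.18 CPM.

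**Figure D4:**
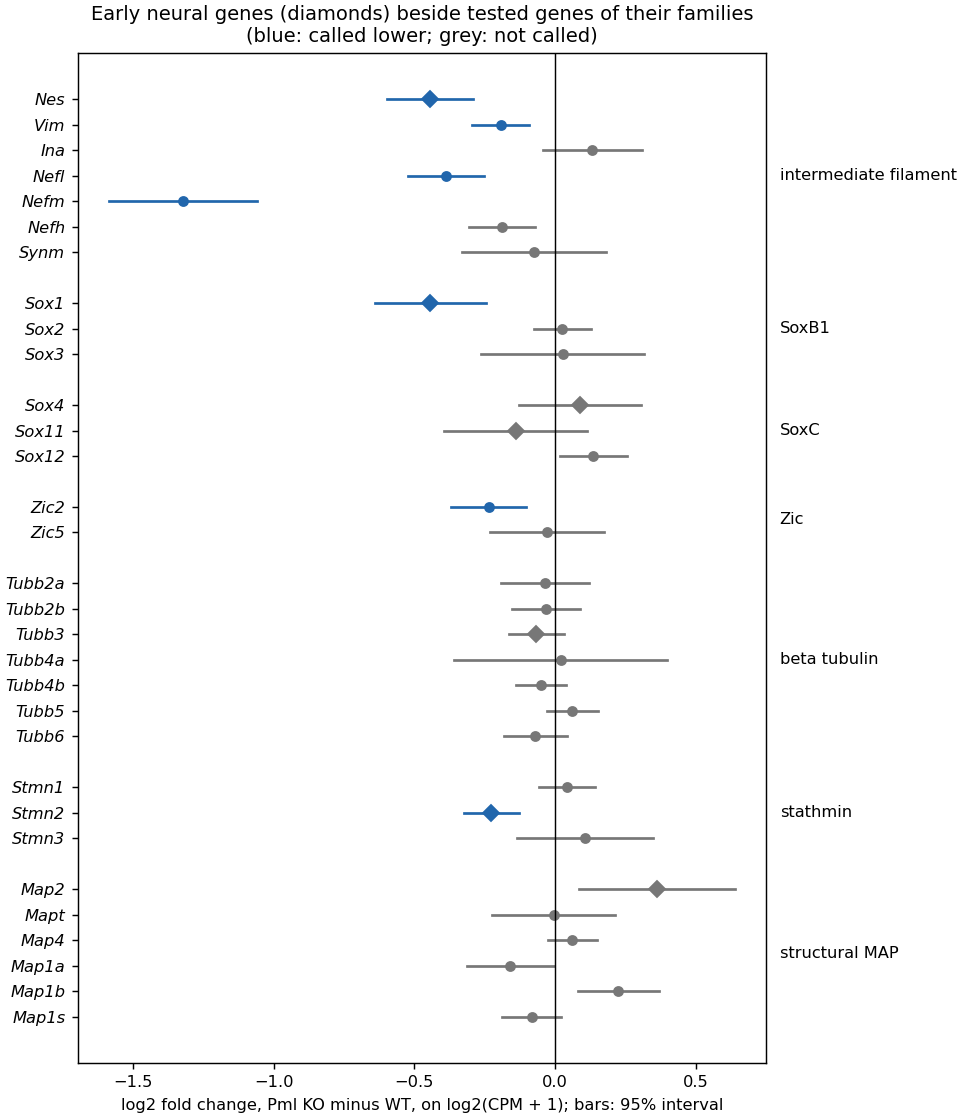
Log2 fold change (horizontal axis, Pml knockout minus wild type on the log2(CPM + 1) scale; points are limma estimates from 2 libraries a genotype, bars are 95% intervals) of tested genes in the families of Nes, Sox1, Sox4 and Sox11, Zic1, Tubb3, Stmn2 and Map2; diamonds are early neural genes and blue marks genes called lower. The lowest point is Nefm at -1.32, and the 7 beta tubulin genes lie within 0.07 of 0.

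Wider lists of neural genes described the surroundings of the 10 members. For comparison with the counts of each list, 3.45% of all tested genes were called lower and 1.95% higher. Of 17 tested neural progenitor genes, 5 fell and none rose, with a median log2 fold change of -0.13. Meis2, a TALE homeobox factor, was at 15.7 and 15.5 CPM in the knockout, against 22.4 and 22.7 CPM in wild type (log2 fold change -0.50, limma adjusted p = 0.0033). Msi1, the RNA-binding protein Musashi 1 of neural stem cells, was at 20.8 CPM in both knockout libraries, against 27.1 and 30.5 CPM in the wild-type libraries (log2 fold change -0.45, limma adjusted p = 0.00573). The others were Vim, Zic2 and Pou3f1, a POU factor of early neural and formative cells (log2 fold change -0.50, limma adjusted p = 0.0328, not called without any 1 of 3 libraries, with no filter or under DESeq2). Otx2, Sox2 and Cdh2 were among the 12 that did not pass. Of 22 proneural and neuronal differentiation factors, 7 had enough reads to be tested. None of the 7 passed with limma, edgeR with its filter or DESeq2. An unadjusted limma p under 0.05 was found for 4 of the 7, 3 of them lower and 1 higher. The share over all tested genes was 19.3%. Ebf1, a helix-loop-helix factor of early neurons and B cells, passed as lower without wild-type library 1 (limma adjusted p = 0.0206) and under edgeR with no filter (adjusted p = 0.00952).

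Neuronal cytoskeleton genes moved in both directions. Of 21 tested, 5 fell and 2 rose, and the median was -0.01. Besides Nefm and Nefl, Marcks, an actin-binding substrate of protein kinase C, was lower at 64.8 and 67.4 CPM in the knockout, against 84.1 and 77.5 CPM in wild type (not called without wild-type library 1, adjusted p = 0.114). Dpysl3, a collapsin response mediator, was higher at 87.4 and 90.6 CPM in the knockout, against 73.5 and 73.4 CPM in wild type (not called without knockout library 2, adjusted p = 0.0518). The second gene that rose was its relative Dpysl5, named after its values were seen (log2 fold change 0.40, not called without knockout library 1, without wild-type library 2 or with no filter). Both remaining genes that fell were named after their values were seen as well. Dpysl2, of the same family, was at 3.56 and 5.33 CPM in the knockout, against 6.91 and 7.55 CPM in wild type (log2 fold change -0.61, limma adjusted p = 0.031, not called without knockout library 1, with no filter or under DESeq2). Dclk1, a doublecortin-like kinase, was at 1.23 and 1.08 CPM in the knockout, against 2.33 and 2.40 CPM in wild type (log2 fold change -0.64, limma adjusted p = 0.0333, not called without any 1 of the 4 libraries, with no filter or under DESeq2). Of 17 tested neuronal adhesion and synaptic genes, only Cdh4, R-cadherin, passed, at 13.5 and 14.1 CPM in the knockout, against 20.7 and 21.1 CPM in wild type (log2 fold change -0.57, limma adjusted p = 0.00199). This list had a median of 0.09, above that of all tested genes.

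Among regulators of neuronal genes, 2 of 16 tested REST complex genes were called. So were 1 of 7 neural splicing regulators and 1 of 15 Notch pathway genes, beside 5.41% of all tested genes. Rest, the repressor of neuronal genes in other cells, was at 162 and 161 CPM in the knockout, against 170.3 and 174 CPM in wild type (log2 fold change -0.09, limma adjusted p = 0.31). Of the 16 tested genes of its complex, the corepressor Rcor2 rose (log2 fold change 0.24, not called without wild-type library 2 or with no filter) and the scaffold Sin3b fell (-0.31); Sin3b also lies on chromosome 8. Ptbp2, a splicing regulator of neural precursors, fell to 34.6 and 35.3 CPM in the knockout, against 45.0 and 44.2 CPM in wild type (log2 fold change -0.34, limma adjusted p = 0.00709), while its relative Ptbp1 was at 0.09 and did not pass. Of 15 Notch pathway genes, Notch1 alone passed (log2 fold change -0.22), and the call ended without either knockout library, without wild-type library 2, under TMM scaling, with no filter, with a filter at 5 CPM, with chromosome medians centred, under edgeR with its filter and under DESeq2. Over these 7 lists together, 14 of 100 tested genes fell and 3 rose, against 3.45% lower and 1.95% higher over all tested genes. The lists were chosen with earlier results of these data known, so these counts are a description and were not tested.

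**Figure D5:**
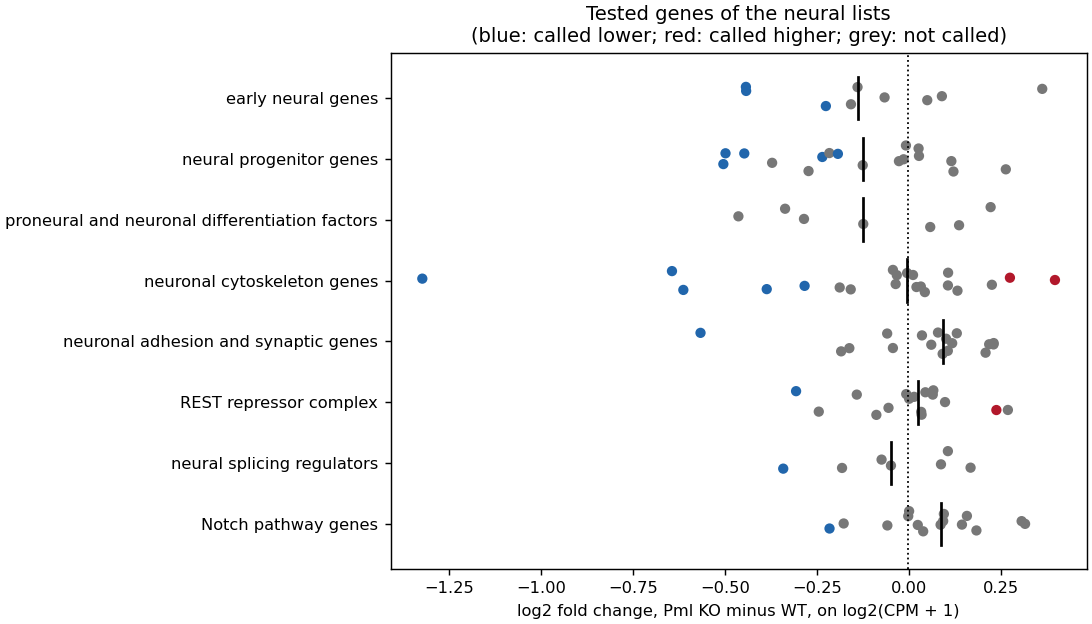
Log2 fold change (horizontal axis, Pml knockout minus wild type on the log2(CPM + 1) scale) of each tested gene in the early neural genes and 7 other lists; points are genes, black bars list medians, the dotted line the median of all tested genes, and blue and red mark genes called lower and higher. The early neural genes have a median of -0.14 and 3 called genes, and neuronal adhesion and synaptic genes a median of 0.09 and 1 called gene.

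For comparison with the counts of called genes in each marker list, 3.45% of all tested genes were called lower and 1.95% higher. Among markers of other cell types that such cultures could hold, those of fibroblasts, endoderm, mesoderm and glia had the lowest sums. Summed over 10 genes for each type and 9 for glia, fibroblast markers were at 24.7 and 22.4 CPM in the knockout and 22.8 and 23.1 CPM in wild type. Endoderm markers were at 10.8 and 12.8 CPM in the knockout and 11.3 and 10.0 CPM in wild type, with no read for Cer1. Mesoderm markers were at 12.2 and 11.9 CPM in the knockout and 15.1 and 13.5 CPM in wild type. Glial markers, with no read for S100b or Aqp4, were at 41.0 and 41.3 CPM in the knockout and 41.1 and 42.1 CPM in wild type. None of the 15 tested genes of these 4 lists passed with limma, edgeR or DESeq2, and 2 (Pdgfrb and Aldh1l1) had an unadjusted limma p under 0.05. They were Col1a1, Thy1, Fbn1, Pdgfrb and Acta2 for fibroblasts, Gata4, Cxcr4, Pdgfra and Dab2 for endoderm, Eomes, Mesp2 and Kdr for mesoderm, and Aldh1l1, Slc1a3 and Mbp for glia. Neural crest markers summed to 116 and 118 CPM in the knockout, against 131 and 126 CPM in wild type, and of Foxd3, Tfap2a, Snai2, Ngfr and Twist1 only Foxd3, which stem cells also express, fell (log2 fold change -0.31, limma adjusted p = 0.0178, not called with no filter or without any 1 library in turn other than wild-type library 2), while Tfap2a passed as lower under edgeR with no filter (adjusted p = 0.033). Foxd3 was at 45.8 and 46.9 CPM in the knockout and 61.7 and 53.9 CPM in wild type, and made up most of the gap between the neural crest sums. Summed over 9 genes, trophoblast markers were at 107 and 105 CPM in the knockout, against 83.5 and 88.0 CPM in wild type. Of 6 tested, Tfap2c, also known from germ cells and naive stem cells, was called higher. It was at 70.7 and 71.9 CPM in the knockout, against 49.8 and 55.2 CPM in wild type (log2 fold change 0.44, limma adjusted p = 0.000845). Tfap2c alone made up most of the gap between the trophoblast sums. Of the 11 pluripotency markers, Zfp42, on chromosome 8, fell (log2 fold change -0.27) and Tfcp2l1 rose (0.29, not called without 3 of the libraries in turn, with no filter or under DESeq2). An unadjusted limma p under 0.05 was found for 7 of these 11, 2 lower and 5 higher, against 19.3% of all tested genes. Fgf4 passed as higher under DESeq2 (adjusted p = 0.0417). Under edgeR with no filter Klf2, Nanog and Fgf4 passed as higher (adjusted p = 0.0291, 0.0125 and 0.0392). The part of the markers of all these cell types in the differences of Nes, Sox1 and Stmn2 was not tested.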

How the data were processed

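RNA of 4 paraquat-treated libraries (2 Pml knockout, 2 wild type, grouped by the labels' titles) was analysed. The submitters' processing notes name cutadapt, TopHat and edgeR and the build mm10. The sources used here do not state versions, annotation, strand use or the handling of multiply matching reads. Deposited CPM values are scaled by library total. Per the file headers, the authors also gave a log2 fold change and log2 CPM with a p-value and its false discovery rate. Dividing by the value of 1 read gave whole reads for 100% of values (tolerance 0.001 reads).

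Limma 3.58.1 (trend, R 4.3.3) was fitted to log2(CPM + 1) over 12710 genes whose mean reached 1 CPM, by genotype alone, with Benjamini-Hochberg adjustment at 0.05. Recovered reads were tested with edgeR 4.0.16 (quasi-likelihood), which called 620 of 14782 genes, and DESeq2 1.42.0. The pseudocount, the filter, the scaling and the libraries were also varied, and chromosome medians were centred, an alternative chosen after seeing the data. The limma test was tried on simulated counts. The members and lists were chosen with earlier results of these data known. Named genes are Pml, the members, tested genes of their families, up to 4 called genes of each other list by adjusted p, and all tested genes of lists with 5 or fewer; a few listed genes are not reported here and were left out of their lists. Poisson and binomial intervals are exact and cover counting error only. Chromosomes came from a RefSeq table of GRCm38.p6, in which 23204 symbols matched directly, 1096 through a unique older symbol and 121 not; promoter windows were found for 8 of the 10 members.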

Additional observations from a re-analysis of the deposited data

How the results depend on the processing

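All 3 calls among the early neural genes, Nes, Sox1 and Stmn2, kept their direction under the 14 alternatives tried, and all but Sox1 with no filter on low values (adjusted p = 0.0555) kept their side of the threshold. The number of early neural genes called was 3 under 13 alternatives and 2 with no filter; no other member was called under any of the 14. The count over all tested genes was 298 with no filter, 1198 with the replicate number as a block, 1125 under edgeR with no filter, and 367 to 869 with 1 library left out. The count over the other neural lists was 17 with limma, 9 with no filter, 25 with the replicate number as a block, 22 under edgeR with no filter and 10 to 15 with 1 library left out. The median of the early neural genes was -0.21 to -0.057 with 1 library left out. The labels do not say that replicate numbers pair libraries across genotypes; deviations of same-numbered libraries correlated at 0.12 over 12710 genes, and the block left the 3 calls among the members in place. Of the list and family genes that limma did not call, 11 passed with the block, among them Map1b, Nefh, Ebf1 and Tfap2a (adjusted p = 0.00933, 0.0297, 0.016 and 0.0377), 9 under edgeR with no filter, and 1 to 4 with 1 library left out. Among genes that were not called, the log2 fold change of Mapt was 0.0054 under edgeR with its filter, 0.0047 under edgeR with no filter and 0.0066 under DESeq2. With 1 library left out, the log2 fold change ranged from -0.10 to 0.20 for Pax6, -0.090 to 0.27 for Sox4, -0.11 to 0.099 for Mapt, -0.12 to 0.067 for Zic5, -0.096 to 0.022 for Tubb2a, -0.13 to 0.058 for Tubb2b, -0.012 to 0.051 for Tubb4a, -0.042 to 0.092 for Sox2, -0.018 to 0.071 for Sox3 and -0.0067 to 0.091 for Stmn1. It ranged from -0.22 to 0.068 for Synm, -0.021 to 0.28 for Cxcr4, -0.049 to 0.42 for Gata4, -0.21 to 0.0072 for Fbn1 and -0.060 to 0.28 for Acta2, none of them called. The causes of these moves were not tested. With 2 libraries a genotype, their number limits precision; Zic1 and Pax6 had the fewest reads of the members and so the widest counting intervals relative to their levels.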
